A study of Mus musculus with 3 samples.

Results

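The genes described here encode the matrix metalloproteinases (MMPs), the ADAMTS proteases and their tissue inhibitors (TIMPs). The members were the protein-coding rows of the deposited table with an Mmp, Adamts or Timp1 to Timp4 symbol, and the enamel protease gene Mmp20 was left out by the rule. They numbered 37 of 19381 listed genes: 15 MMP, 18 ADAMTS and 4 TIMP genes. RNA sequencing had been done on 3 libraries of proximal incisor mesenchyme from mice of the genotype Gli1-CreER;Arid1afl/fl;Arid1bfl/fl, called DKO, in which tamoxifen switches on a Cre recombinase made under the Gli1 promoter that deletes the floxed parts of Arid1a and Arid1b. The mice were 1 month old, had received an intraperitoneal tamoxifen dose of 1.5 mg per 10 g and were sampled 4 days afterwards. Cre is made where Gli1 is active, the RNA was that of all cells in the piece, and the extraction protocol names the proximal incisor while the tissue label names its mesenchyme. Every library was DKO, so no contrast of genotypes could be drawn. The labels do not state whether each library was a separate animal, and the SD given throughout is the spread between libraries, which may be technical.

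MMPs and ADAMTS proteases are zinc enzymes of the extracellular space. MMPs cut collagens and many other matrix proteins, and most are made as inactive precursors. ADAMTS proteases trim the ends of procollagens or cut large proteoglycans such as versican. TIMPs bind the active site of MMPs, and Timp3 also inhibits several ADAMTS proteases. The continuously growing mouse incisor renews its dental mesenchyme, and its matrix is built and removed all along the tooth.

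Levels are normalized counts as deposited, in the order of replicates 1, 2 and 3, and means carry the SD over n = 3 libraries. Deposited levels are not divided by gene length, so differences between genes are given per kilobase of annotated exon, and sums and rankings of deposited levels also reflect gene length. Library totals ranged from 958773 to 986401. The genes that the alleles target were present at gene level in all libraries, Arid1a at 136, 129.8 and 133 and Arid1b at 50.5, 50.7 and 50.8, and reads from unrecombined cells and from exons outside the deleted part keep this from checking the deletion. All 6 mesenchyme markers examined (Prrx1, Pdgfra, Msx1, Dlx5, Twist1 and Col1a1) had a mean of at least 10, as did all 6 markers of dental epithelium, so the tissue also held epithelial RNA. Replicate 1 stood apart by its interferon response genes, whose summed level over 6 genes was 913, 159 and 167. In bulk tissue, fewer cells of a type and less RNA per cell cannot be told apart.

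A mean of at least 10 was reached by 23 of the 37 members, 62.2%, against 66.5% of the 15252 protein-coding genes listed, so the family was measured about as often as protein-coding genes at large. By family these were 9 of 15 MMP, 12 of 18 ADAMTS and 2 of 4 TIMP genes. The median of the member means was 17.4, against 21.5 over all protein-coding genes. Of the other members, 11 had a mean of at least 1 and 3 were below 1. Mmp19, at 10.9 ± 2.76, lay just above the minimum of 10, and Adamts14, at 8.90 ± 3.61, lay just below it. Mmp1a, Mmp1b, Mmp3, Mmp7, Mmp10, Mmp21, Mmp27 and Adamts13 were not analysed here.

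**Figure D1:**
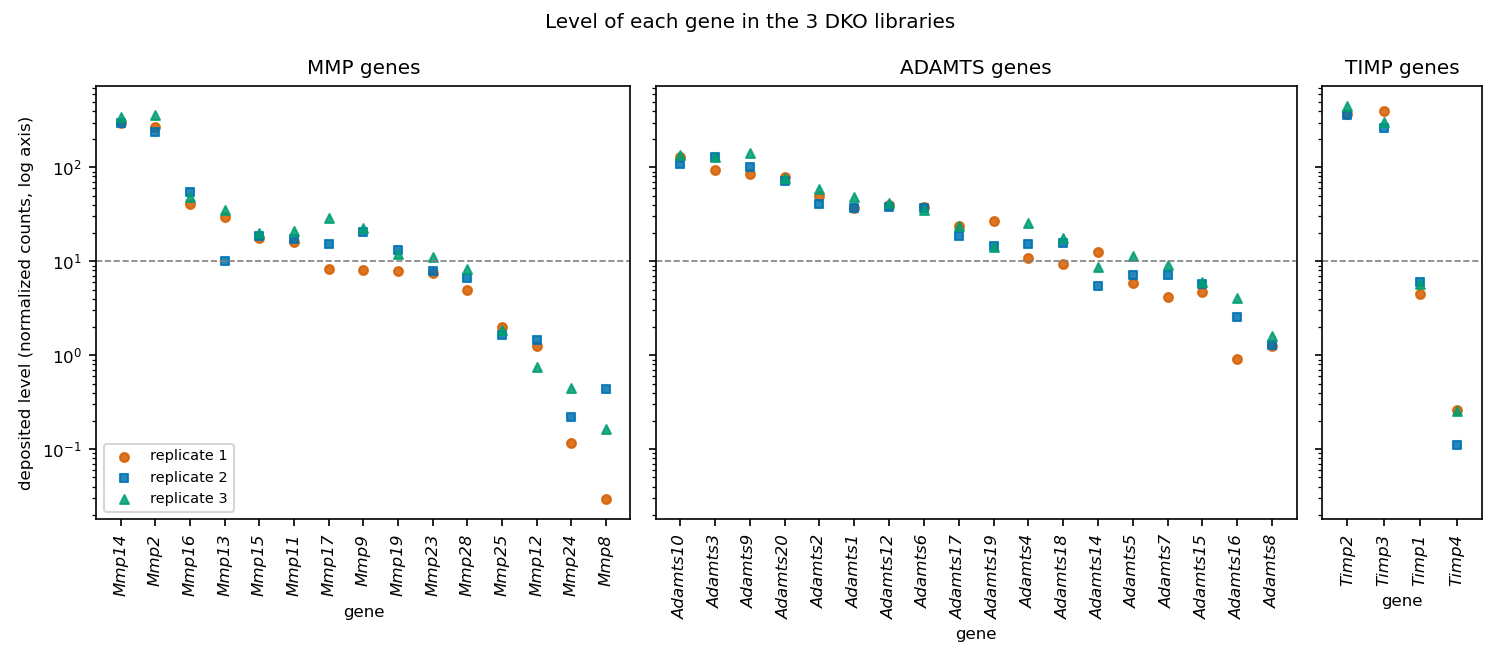
Deposited level of each of the 37 genes in each DKO library on a log axis, with MMP, ADAMTS and TIMP genes in separate panels ordered by mean, and a dashed line at 10. Timp2, Timp3, Mmp14 and Mmp2 lie at the top, and Mmp24, Mmp8 and Timp4 have means below 1.

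Among the inhibitors, Timp2 and Timp3 were abundant and Timp1 and Timp4 were not. Timp2 (chromosome 11, 118301069 to 118355740, mm10), the soluble inhibitor that also serves as a bridge between Mmp14 and pro-Mmp2, stood at 368, 359 and 454 (394 ± 52.2). Timp3 (chromosome 10, 86300372 to 86349506), the inhibitor that binds to the matrix, stood at 400.0, 262 and 304 (322 ± 70.5). Replicate 3 was highest for Timp2 and replicate 1 for Timp3. Exons of Syn3 on the opposite strand cover 21.3% of the exon bases of Timp3, and the strand setting of the counting is not given, but Syn3 itself had a mean of 1.83. Timp1 stood at 4.46, 6.02 and 5.71 and Timp4 at 0.262, 0.110 and 0.256. Per kilobase of exon, Timp1 (6.07 ± 0.930) ranked 12th of the 37 genes, against 30th by deposited level, and its annotated exons span 888 bases.

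Mmp14 and Mmp2, the membrane enzyme and the gelatinase that it activates, led the proteases. Mmp14 (chromosome 14, 54431612 to 54445364) stood at 297, 297 and 347 (314 ± 28.8). Mmp2 (chromosome 8, 92827291 to 92853420) stood at 271, 241 and 364 (292 ± 64.3). Both were highest in replicate 3. Together with Timp2 and Timp3 they held 60.0% of the summed deposited level of the 37 genes, and 67.4% of the summed level per kilobase of exon.

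On the scale of levels per kilobase of exon the order was Timp2, Mmp2, Mmp14 and Timp3. Timp2 stood at 94.5, 92.2 and 116 per kilobase and Mmp2 at 80.3, 71.5 and 108 per kilobase, so Timp2 was the higher of the pair within each library although their ranges over libraries overlapped. Mmp14 stood at 49.9, 49.9 and 58.2 per kilobase and Timp3 at 49.1, 32.2 and 37.4 per kilobase. In replicate 1 these last values were nearly equal, and in the other libraries Mmp14 was higher. The next genes were Adamts3 at 21.5 ± 3.71, Adamts10 at 15.2 ± 1.72 and Mmp13 at 9.33 ± 4.94 per kilobase, and Mmp13 overlapped in range with Adamts20, Adamts1 and Adamts9 below it.

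**Figure D2:**
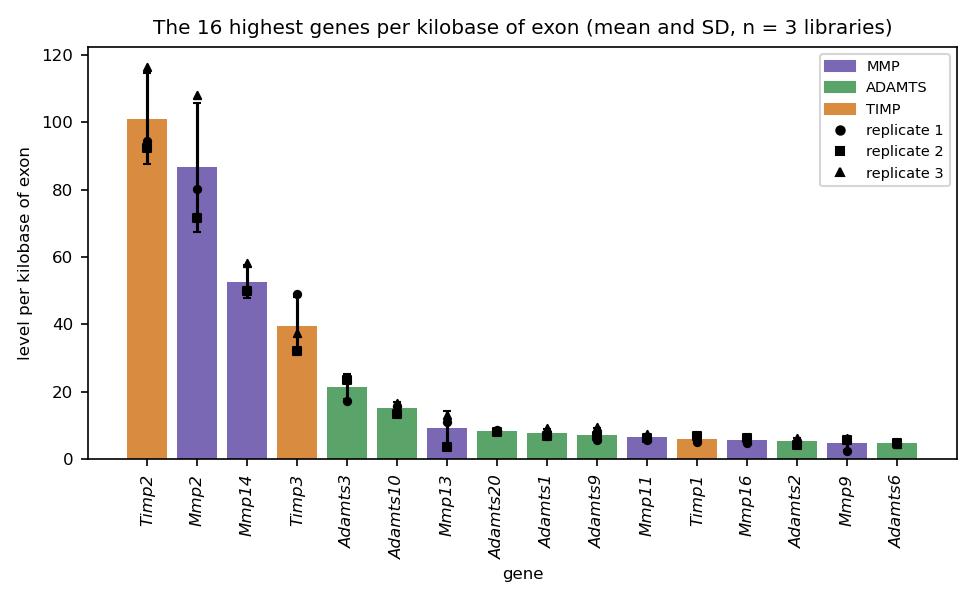
Level per kilobase of exon of the 16 highest genes, with bars for the mean, error bars for the SD over 3 DKO libraries and black symbols for each library. Timp2, Mmp2, Mmp14 and Timp3 stand above all others, and the next gene, Adamts3, has a mean of 21.5.

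Within libraries, 3 pairs of genes were compared on the scale of log2(level per kilobase + 1). Mmp14 was lower than Mmp2 by a log2 difference of -0.69 ± 0.19, Timp2 exceeded Timp3 by 1.34 ± 0.36 and the procollagen protease gene Adamts2 exceeded the proteoglycanase gene Adamts5 by 1.85 ± 0.18, always with the same sign in 3 of 3 libraries. By an exact permutation of signs, two-sided, p was 0.25 for every pair and 0.25 after Benjamini-Hochberg adjustment over the 3 pairs, which is the smallest p that n = 3 allows. As deposited, without division by length, the log2 difference of Mmp14 and Mmp2 was 0.12 ± 0.19, within the spread between libraries, with Mmp14 above Mmp2 in replicates 1 and 2 and below it in replicate 3. The annotated exons span 5960 bases for Mmp14 and 3371 bases for Mmp2. Adamts5, at 0.756 ± 0.271 per kilobase, lies near the pseudocount of 1, and its difference from Adamts2 (5.36 ± 1.02 per kilobase) is understated on this scale.

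Summed over families per kilobase, MMP genes came to 166, 159 and 218, ADAMTS genes to 80.7, 83.3 and 99.2 and TIMP genes to 149, 131 and 160.3. The TIMP sum was therefore 0.896, 0.827 and 0.736 of the MMP sum. These are sums of RNA levels, and the ratio was lowest in the library with the highest MMP sum, replicate 3.

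The remaining MMPs had deposited means below 50. The other membrane-type members were Mmp16 at 40.9, 54.6 and 48.5, Mmp15 at 17.6, 18.4 and 20.1, and the lipid-anchored Mmp17 at 8.30, 15.3 and 28.6. Mmp16 and Mmp15 differed by less than 1.5-fold between libraries and Mmp17 by 3.19-fold. Mmp25 had a mean of 1.83 and Mmp24 of 0.260, although BC029722, a gene with a mean of 20.1 on the other strand, covers 13.6% of the exon bases of Mmp24. Mmp11, a stromelysin-like enzyme that furin activates inside the cell, stood at 15.99, 17.5 and 21.01. Mmp19 stood at 7.84, 13.1 and 11.8, but 22.3% of its exon bases are shared with Tmem198b on the other strand, a gene with a mean of 23.6, so its level is uncertain. Mmp23 and Mmp28 had means of 8.81 and 6.61.

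The 3 listed MMP genes of the cluster on chromosome 9 differed strongly in level. Mmp13 (7272514 to 7283331), the main interstitial collagenase of rodents and an enzyme of bone-forming and cartilage cells, averaged 24.9 ± 13.2. Mmp12, the macrophage elastase, starts 61.0 kb beyond it and averaged 1.15 ± 0.366. Mmp8, the neutrophil collagenase, lies a further 189 kb away and averaged 0.211 ± 0.209. Per kilobase of exon the 3 means were 9.33, 0.159 and 0.0868, in the order given. Among listed collagenase and elastase genes, Mmp13 was therefore the only one measured above a mean of 10. The summed level of the 3 listed neutrophil markers was 0.670, 4.31 and 1.72, and Ly6g and Elane were not analysed here.

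Mmp13 had the widest range of the 23 members, 3.28-fold. Its level was 29.7, 10.0 and 35.1, with replicate 2 lowest and the others close to each other. The mean of the other libraries was 3.04-fold that of replicate 2 on the log2(level + 1) scale. All 5 odontoblast markers examined were also lowest in replicate 2, against 27.8% of all genes with a mean of at least 10. Their summed level was 15658, 5981 and 17952, and 4 of the 5 had a mean of at least 10. Col1a1, counted among the mesenchyme markers too, made up the largest part of this sum, at 9950, 4719 and 13715. Dspp stood at 4959, 1072 and 3489 and Phex at 377, 79.7 and 339. Adamts14, a procollagen N-proteinase below the minimum level, stood at 12.6, 5.44 and 8.62 and was lowest in the same library. All 6 markers of dental epithelium were highest in replicate 2, with sums of 619, 985 and 695. The part of cell make-up in these differences was not tested.

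Promoters are shown for Mmp13, the member with the widest range, and for Mmp14, Timp3 and Timp2, abundant members whose ranges were narrower, as the 250 bases before the RefSeq start on the strand of the gene (GRCm38.p6). The windows are chr9:7272264-7272513, plus strand, for Mmp13, chr14:54431348-54431597, plus strand, for Mmp14, chr10:86300162-86300411, plus strand, for Timp3 and chr11:118355412-118355661, minus strand, for Timp2. The gene positions given above come from GENCODE, whose starts differ from the RefSeq starts for some genes. By the GENCODE positions the whole Timp2 window lies inside the gene. The end of the Timp3 window, with its GC box, lies inside that gene. Capitals mark matches on either strand to the AP-1 motif TGANTCA, the Runx motif TGTGGTT, the TATA box TATAAA and the GC box GGGCGG.
Mmp13: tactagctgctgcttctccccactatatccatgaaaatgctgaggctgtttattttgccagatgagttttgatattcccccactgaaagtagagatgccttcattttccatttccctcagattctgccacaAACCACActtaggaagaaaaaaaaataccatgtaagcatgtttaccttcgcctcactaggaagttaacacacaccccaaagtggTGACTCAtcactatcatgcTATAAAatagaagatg
Mmp14: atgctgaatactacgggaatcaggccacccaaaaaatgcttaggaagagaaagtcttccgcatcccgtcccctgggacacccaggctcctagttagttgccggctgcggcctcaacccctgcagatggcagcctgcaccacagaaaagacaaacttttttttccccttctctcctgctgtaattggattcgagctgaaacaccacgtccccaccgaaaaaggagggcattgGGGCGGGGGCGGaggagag
Timp3: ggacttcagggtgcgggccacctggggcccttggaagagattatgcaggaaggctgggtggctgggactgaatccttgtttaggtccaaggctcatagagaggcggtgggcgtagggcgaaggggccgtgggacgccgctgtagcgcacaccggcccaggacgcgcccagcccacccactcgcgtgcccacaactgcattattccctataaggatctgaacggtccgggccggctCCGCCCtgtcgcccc
Timp2: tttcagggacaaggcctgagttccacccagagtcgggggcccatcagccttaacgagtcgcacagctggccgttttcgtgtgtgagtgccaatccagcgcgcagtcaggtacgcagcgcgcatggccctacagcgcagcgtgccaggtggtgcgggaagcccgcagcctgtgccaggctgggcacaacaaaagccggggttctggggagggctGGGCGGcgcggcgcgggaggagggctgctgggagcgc

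The Mmp13 window held an AP-1 match 35 to 29 bases before the start, a Runx match on the minus strand 119 to 113 bases before it and a TATA box 16 to 11 bases before it, and no GC box. The windows of Mmp14, Timp3 and Timp2 held GC boxes and none of the other motifs. In Mmp14 the boxes are adjacent, at 19 to 14 and 13 to 8 bases before the start. Over all 32851 promoter windows of the same length, 6.75% held the AP-1 motif, 4.4% the Runx motif, 12.4% the TATA box and 32.7% the GC box. Windows were given for 23 of the 37 members, 25 windows in all, of which 16 held a GC box, 2 an AP-1 motif (Mmp12 and Mmp13), 2 a TATA box (Adamts1 and Mmp13) and 1 the Runx motif (Mmp13). The median share of G and C bases was 63.2% in the member windows and 52.4% over all windows, and the motif shares were not adjusted for it. A match describes letters only and does not show that a factor binds.

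Of the procollagen N-proteinases, which remove the amino-terminal propeptides of fibrillar collagens, Adamts3 was the highest per kilobase. Adamts3, which in mice also takes part in activating the lymphatic growth factor Vegfc, stood at 93.6, 128 and 129. Adamts2, the main processor of type I procollagen, stood at 50.1, 40.5 and 59.5. Adamts3 was lowest in replicate 1 and Adamts2 in replicate 2. The fibrillar collagen gene Col1a1 had a level of 9950, 4719 and 13715, also lowest in replicate 2. Col1a2 stood at 2809, 3890 and 5371 and Col3a1 at 2100, 3325 and 3682, both lowest in replicate 1.

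Among the proteoglycanases, which cut versican and aggrecan, Adamts9, Adamts20, Adamts1 and Adamts4 had means of at least 10 and Adamts5, Adamts15 and Adamts8 did not. Adamts20, known for a belted coat when mutated in mice, stood at 78.4, 72.4 and 77.6, a range of 1.08-fold between libraries. Adamts1 stood at 36.9, 36.9 and 48.96. Adamts9 stood at 84.4, 101 and 143, highest in replicate 3. Adamts1 and its neighbour Adamts5 lie 53.1 kb apart on chromosome 16, and Adamts5, a major aggrecanase of mouse cartilage, stood at 5.91, 7.09 and 11.5. Adamts15 and Adamts8, 20.1 kb apart on chromosome 9, had means of 5.49 and 1.38. The substrate gene Vcan stood at 1512, 1762 and 1747 and Acan, the aggrecan gene, at 21.1, 12.1 and 10.3.

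The fibrillin-associated and COMP-cleaving members with a mean of at least 10 differed by less than 1.5-fold between libraries. Adamts10, which binds fibrillin microfibrils, stood at 129.8, 109.5 and 137, and its relative Adamts6 at 37.4, 37.2 and 35.4. Adamts6 had the lowest coefficient of variation of the 23 members, 3.11%. Adamts12 stood at 40.2, 38.2 and 41.4, and Adamts7 had a mean of 6.77. Comp, the cartilage protein that Adamts7 and Adamts12 cut, had a mean of 1.11. Of the other ADAMTS genes, Adamts17 stood at 23.7, 18.4 and 23.7, Adamts18 at 9.47, 15.5 and 17.5 and Adamts19 at 26.9, 14.5 and 14.1, while Adamts16 had a mean of 2.51.

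A larger share of the 23 members than of all genes differed between libraries. The highest library exceeded the lowest by at least 1.5-fold on the log2(level + 1) scale for 10 of 23 members (43.5%), against 5.68% of the 10388 genes whose mean reached 10. The median of this range was 1.38-fold over the members and 1.14-fold over all 10388 genes. The 10 were Mmp2, Mmp9, Mmp13, Mmp17, Mmp19, Adamts4, Adamts9, Adamts18, Adamts19 and Timp3. Timp3 and Mmp2, at 1.52-fold and 1.51-fold, lay just inside this bound and Adamts2, at 1.46-fold, just outside. Without replicate 1 the count was 4 of 23, against 1.58% of genes, without replicate 2 it was 6, against 3.80%, and without replicate 3 it was 7, against 3.57%. No test was possible, because the libraries form 1 group.

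**Figure D3:**
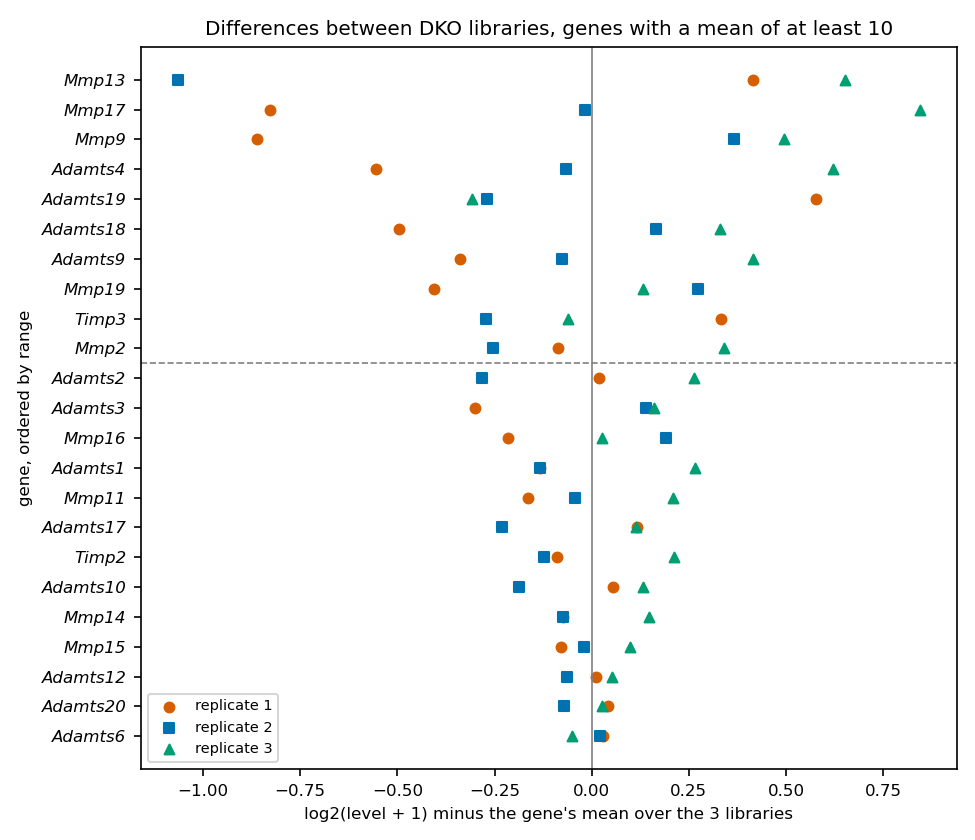
Log2(level + 1) of the 23 genes with a mean of at least 10, each minus its own mean over the 3 DKO libraries, ordered by range. Genes above the dashed line differ by at least 1.5-fold between libraries, and for most of them replicate 1 lies at the left or replicate 3 at the right.

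Of 8 members set apart by at least 1.5-fold in a single library, 7 were low in replicate 1, high in replicate 3 or both. Replicate 3 was the highest library for 16 of 23 members (69.6%), against 34.6% of all genes, replicate 1 for 5, against 31.2%, and replicate 2 for 2, against 34.2%. The lowest library was replicate 1 for 12 of 23 (52.2%), against 38.1% of all genes, replicate 2 for 9, against 27.8%, and replicate 3 for 2, against 34.2%. At least 1.5-fold below the mean of the other libraries in replicate 1 were 5 of 23 members, Mmp9, Mmp17, Mmp19, Adamts4 and Adamts18, against 1.22% of all genes. At least 1.5-fold above it in replicate 3 were 5 of 23, Mmp9, Mmp13, Mmp17, Adamts4 and Adamts9, against 0.693%. Adamts19 was the only member of the 23 at least 1.5-fold higher in replicate 1 (1.82-fold, against 1.7% of genes), and Mmp13 the only one as much lower in replicate 2 (against 1.52%). None of the 23 was as much higher in replicate 2, against 0.327% of genes, or lower in replicate 3, against 1.2%.

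Mmp9 (chromosome 2, 164940780 to 164955850), the gelatinase of macrophages, neutrophils and osteoclasts, stood at 8.16, 20.5 and 22.5, with replicate 1 lowest. The mean of the others was 2.45-fold that of replicate 1. All 6 macrophage markers were lowest in replicate 1 too, against 38.1% of all genes with a mean of at least 10. Their summed level was 756, 1030 and 1073, a narrower range than that of Mmp9. Of the endothelial markers, 4 of 5 were lowest in replicate 1 as well. The macrophage elastase gene Mmp12, by contrast, stood at 1.25, 1.46 and 0.745 and was lowest in replicate 3. Of the osteoclast markers, Acp5 stood at 26.7, 35.5 and 24.5, lowest in replicate 3. Ctsk stood at 39.7, 39.0 and 45.4, lowest in replicate 2. Oscar had at most 0.357 and was lowest in replicate 1. The sum of Acp5, Ctsk and Oscar was 66.5, 74.9 and 70.0, and Ocstamp and Dcstamp were not analysed here. The part of any of these cell types in the level of Mmp9 was not tested.

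Mmp17 and Adamts4 were both lowest in replicate 1 and highest in replicate 3. Mmp17 (chromosome 5, 129584169 to 129611099) stood 2.31-fold above the mean of the other libraries in replicate 3, and in replicate 1 that mean was 2.47-fold its level. Adamts4 (chromosome 1, 171250421 to 171260637), an aggrecanase, stood at 10.7, 15.5 and 25.5, which is 1.88-fold higher in replicate 3. Adamts9 (chromosome 6, 92772699 to 92943492) was 1.53-fold higher there. All 5 endothelial markers were highest in replicate 3, against 34.6% of all genes. Their sums were 294, 312 and 418, a narrower range than that of Mmp17 or Adamts4. The part of endothelial cells in these levels was not tested.

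**Figure D4:**
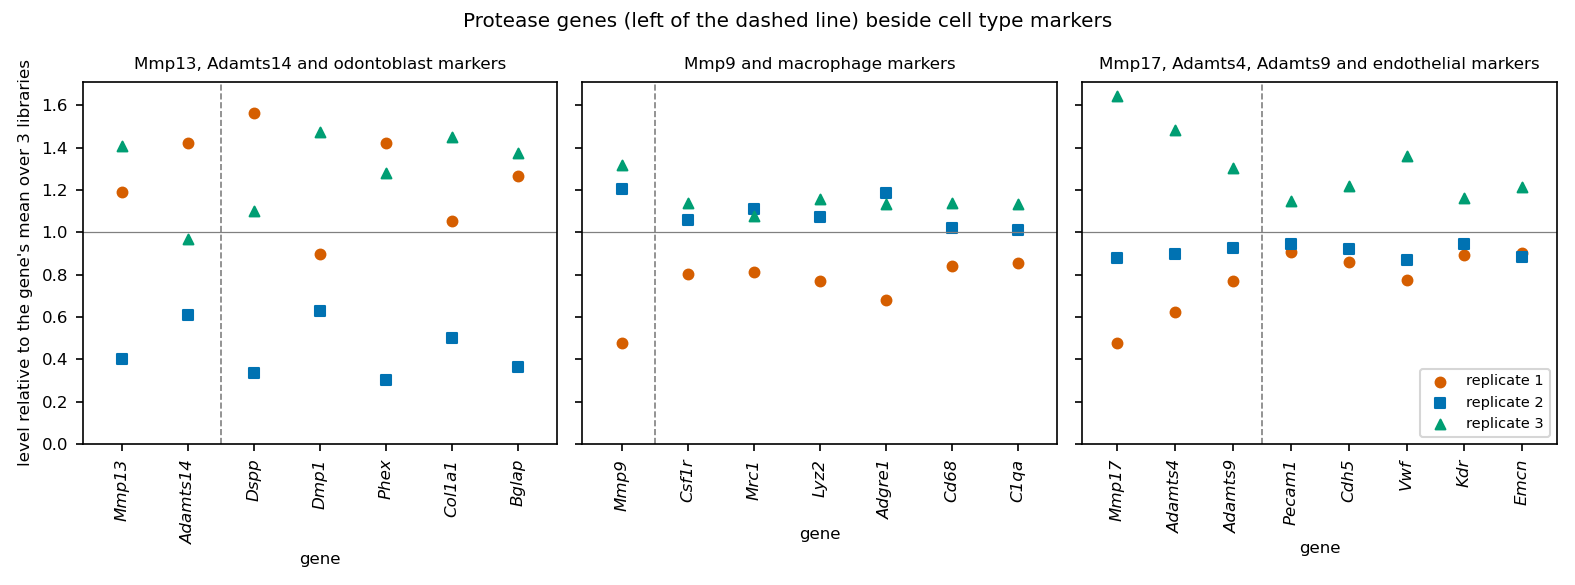
Level in each DKO library relative to the gene's own mean, for protease genes left of the dashed lines and for markers of odontoblasts, macrophages and endothelial cells right of them. Mmp13 and all 5 odontoblast markers are lowest in replicate 2, Mmp9 and all 6 macrophage markers are lowest in replicate 1, and Mmp17, Adamts4, Adamts9 and all 5 endothelial markers are highest in replicate 3; the pairing of genes with marker lists was chosen after the values were seen.

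Adamts19 and Timp3 went the other way and were highest in replicate 1. Adamts19 was at 26.9 there, while the other libraries lay close together. Of all genes with a mean of at least 10, 31.2% were highest in replicate 1. The 6 interferon genes and the cartilage-associated genes Sox9 (224, 169.7 and 168) and Acan were highest in replicate 1 as well, whereas Col2a1, the third listed chondrocyte marker, stood at 3.23, 4.97 and 5.08 and was lowest there. Neither gene group was tested as a source of the difference.

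Genes that activate, clear or modulate these proteases were examined as a list of 31, of which 30 were listed in the table and 24 had a mean of at least 10. The 6 with the highest deposited level were Lrp1, the receptor that clears proteases and their complexes, at 489.8, 519 and 629, Mrc2, a receptor for collagen fragments, at 504, 436 and 537, Thbs1 at 318, 323 and 561, Adam10 at 378, 418 and 390.1, Bsg, an inducer of MMPs, at 381, 366 and 393, and Furin, which cuts the propeptides of Mmp14 and ADAMTS proteases, at 231, 241 and 264. Of these 6, all but Thbs1 differed by less than 1.5-fold between libraries. In the list, 4 of 24 differed by at least that much, against 5.68% of all genes: Thbs1, Adamtsl2 (22.7, 5.82 and 24.8), Adamtsl3 (26.2, 40.5 and 47.4) and Plau (11.4, 15.7 and 17.8). Adamtsl2, an ADAMTS-like protein without protease activity that binds fibrillin, was lowest in replicate 2 as Mmp13 was. Reck, the membrane-anchored MMP inhibitor, stood at 128, 132 and 162. Of the 24 with a mean of at least 10, 20 were highest in replicate 3, against 34.6% of all genes, and 16 lowest in replicate 1, against 38.1%. Of 11 substrate genes examined, 10 had a mean of at least 10, 6 of these differed by at least 1.5-fold, against the same 5.68%, and 8 of the 10 were highest in replicate 3, against 34.6%.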

How the data were processed

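Gene expression was measured in 3 DKO libraries. The authors deposited a gene-level signal, called normalized counts in the name of the table, with an upper quartile of 44.7 in replicate 1. Reads were aligned with TopHat2 2.0.8 to mm10, per the submitters' processing notes. Not given in the sources used here are the counter, its annotation and strand setting, its treatment of shared reads and any filter. A column was assigned to the library whose name carries the same number.

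All listed member values up to 1000 times the smallest value of their library were whole multiples of it to a tolerance of 0.1 (23 of 23, 24 of 24 and 20 of 20 members), against 84.1%, 84.1% and 83.1% of all genes. Whole reads were therefore not recovered for the table, and no count model was used. If the smallest value is 1 read, counting error is 5.40%, 5.24% and 4.83% at a level of 10 and covers counting only.

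Differences between libraries used log2(level + 1), a minimum mean of 10 and a bound of 1.5-fold. The call of genes higher in 1 library and the call of range were checked on simulated counts. These counts had counting error only and genes raised in replicate 1. Lower calls and spread between libraries beyond counting were not covered. Exon lengths and positions came from GENCODE M21, which matched the table's start for all 37 members, and the table's stop lay 1 base beyond each end. Promoters came from RefSeq (GRCm38.p6). Named genes were all TIMPs, all members with a mean of at least 10, those next to that minimum, and the highest or most variable regulators. Others were named after their values were seen. The members and lists were chosen with earlier results of these data known. Other scalings, pseudocounts and filters, and leaving out each library, were tried. Analyses used Python 3.11.15 and pandas 2.3.3.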

Additional observations from a re-analysis of the deposited data

How the results depend on the processing

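Scaling to equal totals or by median-of-ratios left 23 members with a mean of at least 10, as did leaving out any library. A minimum of 100 left 7, and 36 lay above the smallest value in every library. Of the 10 members that differed by at least 1.5-fold, 8 remained with equal totals (Mmp2 and Timp3 were lost). With a pseudocount of 10, 7 remained (Mmp2, Mmp19 and Adamts18 were lost). At a minimum mean of 100, 3 of the 7 tested remained. The share of all genes differing as much, 5.68% in the main setting, was 5.699% with equal totals. This share fell to 3.129% with a pseudocount of 10 and to 3.895% at a minimum mean of 100. When any library was omitted, 4 to 7 of the 10 members remained. Without replicate 1 they were Mmp2, Mmp13, Mmp17 and Adamts4. The 8 members set apart in at least 1 library became 5 with a pseudocount of 10, 1 at a minimum mean of 100, and 4 to 7 when any library was omitted. In replicate 1 the 1 higher member became 0 at a minimum mean of 100, 2 with no filter and 1 to 3 with another library left out, and the 5 lower members became 2 with a pseudocount of 10 and 0 at a minimum mean of 100. In replicate 2 the count of 0 higher became 0 to 4 with another library left out, and the 1 lower member became 0 at a minimum mean of 100, 2 with no filter and 3 to 4 with another library left out. In replicate 3 the 5 higher members became 3 with a pseudocount of 10, 1 at a minimum mean of 100 and 8 with no filter, and the 0 lower became 0 to 1 with another library left out. Fewer genes enter at a minimum mean of 100, and more with no filter. For the other shifts the cause was not tested. The difference of Mmp14 and Mmp2 reversed to 0.12 without division by exon length. The means of 26 named members moved by less than 1 SD with equal totals and with median-of-ratios scaling. No paired analysis was possible because the series has 1 group, so that no replicate number is shared between groups. The planned counts on recovered reads were not run. Depth limits statements on members with means below 1, where Mmp8 reached only 1, 16 and 7 times the smallest value of its library.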
